A study of Drosophila melanogaster with 2 samples.

Results

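Described here are 9 Drosophila melanogaster genes of netrin signalling, Slit signalling and axon growth, out of 13945 protein-coding genes: unc-5, fra, NetA, NetB, sli, robo1, robo2, robo3 and sick. They were chosen by the signal values of these same peak lists, in which peaks at unc-5 and sick rank among the strongest, so those values are a description and carry no test. Binding of the protein CG14965 was mapped by chromatin immunoprecipitation with sequencing (ChIP-seq), using an antibody to GFP and 1 transgenic line that carries CG14965 with enhanced GFP (eGFP) fused to its C terminus. The chromatin was that of whole mixed-sex embryos collected between 0 and 24 h, sonicated to 200 to 800 bp. Both samples, biological replicates 3 and 4 from separate biosamples, form 1 group, so there is no comparison between conditions. A control library and an untagged line were not analysed here. What drives the fusion gene is not given in the sources used here. Whole embryos mix all tissues, so no region can be placed in neurons or in any other cell type.

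Of the 9 genes, 7 had at least 1 peak in the authors' optimal list within the gene body or 5 kb of it, against 17.7% of all protein-coding genes and 31.9% of those with windows at least as long as the shortest of the 9. 1 peak each at unc-5 and sick stood far above the others, and none of the 10 peaks lay within 500 bp of a transcription start site (TSS) of its own gene, where 4.9% of all protein-coding genes had one. No peak of the optimal list lay at robo1 or robo3.

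NetA and NetB encode netrins, secreted cues made by midline cells of the nerve cord. The receptor Frazzled, encoded by fra and related to vertebrate DCC, draws axons towards netrin, and the receptor Unc-5 turns them away. The gene sli encodes Slit, a secreted repellent of the midline, and robo1, robo2 and robo3 encode its Roundabout receptors, which keep axons from crossing the midline and set their lateral position. The gene sick (sickie) acts in axon growth and in control of actin.

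Sequence around the summits is shown for peaks of sick, robo2 and NetA, because many of the strongest peaks of the study hold a word of the binding motif of the insulator protein CTCF and the peaks shown here differ in it. Each run has 101 bases of the plus strand, 5′ to 3′, centred on the summit, from the RefSeq Release 6 genome (dm6). The 4 CTCF core words searched, on both strands, were AGAGGGCGC, AGATGGCGC, AGGGGGCGC and AGGTGGCGC. Capitals mark a core word or a word that differs from one by 1 base. None of the 4 windows overlaps an annotated exon. The first is the strongest sick peak (chr2L:19887626-19887726), the second a weaker sick region outside the optimal list (chr2L:19817212-19817312), chosen after its values were seen. Then come the peaks of robo2 (chr2L:1422888-1422988) and NetA (chrX:14633343-14633443).
sick, strongest peak: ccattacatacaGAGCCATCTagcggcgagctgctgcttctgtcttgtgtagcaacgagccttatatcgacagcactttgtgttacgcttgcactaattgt
sick, weaker region: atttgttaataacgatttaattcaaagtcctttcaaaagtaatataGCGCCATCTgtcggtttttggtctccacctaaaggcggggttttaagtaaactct
robo2: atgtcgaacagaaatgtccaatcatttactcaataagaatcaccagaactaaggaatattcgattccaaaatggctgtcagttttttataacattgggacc
NetA: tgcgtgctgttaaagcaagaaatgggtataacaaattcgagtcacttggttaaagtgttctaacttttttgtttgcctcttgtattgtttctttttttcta
In the strongest sick peak the capitals, read on the minus strand, are the word AGATGGCTC. It differs from the core word AGATGGCGC by G8T, counted from 1 at the 5′ end of the word, and starts 38 bp from the summit. The weaker sick region holds the exact core word AGATGGCGC on the minus strand, 4 bp from its summit. The windows of robo2 and NetA hold no core word, exact or with 1 mismatch.

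Regions were placed by their summits on dm6 (coordinates start at 1). The pooled list has 30000 candidate regions called on both replicates together. The authors' optimal list has 1302 of them, thresholded by the irreproducible discovery rate (IDR), which rates how well ranks repeat between replicates. Each of the 10 peaks described below has the same rank in both lists, and the weakest (rank 1278) ranked 7444 in replicate 4. A place in the optimal list therefore does not show that a peak repeated in both replicates. Each region carries a signal value, a peak score of unstated scale. It is read only within a list, and rank 1 is the highest signal of that list. Signal values in the optimal list ran from 69.8 to 8276 with a median of 101. Read numbers are not in these lists, and the depth behind both replicates is therefore unknown.

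The windows of the 9 genes cover 570 kb and held 10 optimal peaks, or 1.75 per 100 kb, against 0.973 per 100 kb of all chromosome arms. Over all protein-coding genes the density was 1.58 in windows of 15 to 20 kb and 1.51 in those of 20 to 40 kb. It was 1.04 at 40 to 60 kb, 1.08 at 60 to 80 kb and 0.645 at 80 kb and over. Of the pooled candidates in these windows, 10 of 183 were optimal, against 4.34% of all pooled candidates. Of the 9 genes, 7 had an optimal peak, against 17.7% of all protein-coding genes counted the same way. The genes are long, and the share rises with window length. Among protein-coding genes with windows at least as long as the shortest of the 9 (18447 bp, robo1), 31.9% had an optimal peak. In windows of 40 to 60 kb, 3 of 4 of the genes had a peak (fra, NetA and robo2, not robo3), against 35.1% of all genes of that length. In windows of 60 to 80 kb both NetB and sli had one, against 42.4%. The share was 45.7% for windows of 80 kb and over, where sick lies, and 29.2% for windows of 20 to 40 kb, where unc-5 lies. Since the genes were picked with these peaks in view, the difference from the background is not a result about them.

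**Figure D1:**
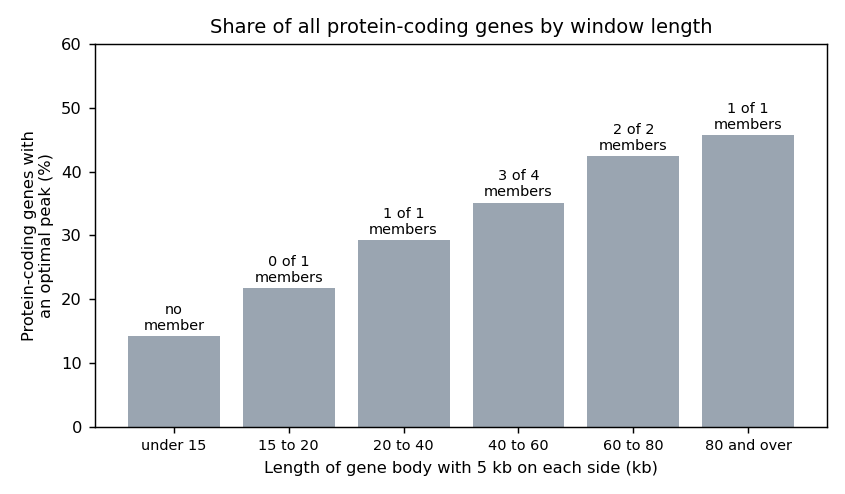
Share of all protein-coding genes with an optimal peak (vertical axis, percent) by length of the gene body with 5 kb on each side (horizontal axis, kb). The bars climb from 14.2% for windows under 15 kb to 45.7% for windows of 80 kb and over; the text above each bar gives how many of the 9 genes of that length had a peak.

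The netrin receptor gene unc-5 (FBgn0034013, 2R, 15340472 to 15368300, plus strand) carried the strongest peak of the 9 genes. It spans 15339345 to 15339926, and its summit at 15339649 lies 823 bp upstream of the first unc-5 TSS and 265 bp beyond the 3′ end of the neighbouring nuclear receptor gene Hr51. The signal was 3457 in the pooled data (rank 6), 2140 in replicate 3 (rank 5) and 1336 in replicate 4 (rank 6). Its summit was at the same base in replicate 3 and 33 bp away in replicate 4. The rest of the gene was weak: its other 19 pooled regions had signals of at most 50.5, the highest lying in an intron at 15355821 to 15356256 (rank 2419). The unc-5 TSSs themselves had only candidates outside the optimal list. At the first TSS the signal was 38 in the pooled data (rank 5145) and 34.7 in replicate 3 (rank 1931), with no region in replicate 4. At the second TSS, 15350133, it was 44.7 in the pooled data (rank 3312), and 37.2 in replicate 4 (rank 939), while the overlapping region of replicate 3 had 12.9 (rank 19252).

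The other netrin receptor gene, fra (FBgn0011592, 2R, 12529053 to 12564184, plus strand), had 1 optimal peak, in an intron at 12538057 to 12538492, 9222 bp after its single TSS. All 3 annotated transcripts span it. Its signal was 103 in the pooled data (rank 636), 81.6 in replicate 3 (rank 367) and 28.3 in replicate 4 (rank 2062). The replicates placed it unequally. The 28.3 of replicate 4 belongs to a region at 12537635 to 12538058, which reaches only the first bases of the peak. Its summit lies 428 bp away. The nearest replicate 4 summit, 99 bp away, had a signal of 20.5 (rank 6979). At the fra TSS a pooled region 122 bp away had a signal of 48.6 (rank 2650), the best rank in the pooled list of a region at a TSS of the 9 genes. That region had 32.7 in replicate 3 (rank 2195) and 15.1 in replicate 4 (rank 18763). The strongest other region of fra (51.2, rank 2333) overlaps the optimal peak.

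Both netrin genes lie on the X chromosome on the minus strand, and each had 1 intronic peak far from its TSSs. NetA (FBgn0015773, 14604012 to 14653928) had it at 14633175 to 14633610, 20.4 kb from the nearest of its 2 TSSs. The signal was 92.4 in the pooled data (rank 780), 48.6 in replicate 3 (rank 1016) and 41.9 in replicate 4 (rank 713). NetA was the only one of the 9 genes with no pooled candidate at a TSS. Its next strongest region (58.1, rank 1804) sits past its 3′ end, 16 bp from the TSS of sbm, and reached rank 1265 in replicate 3 with 43.1. NetB (FBgn0015774, 14686038 to 14749376) had its peak at 14717216 to 14717651, 31.6 kb from a TSS and spanned by all 7 transcripts. The small gene hog, nested in the same stretch, starts 1508 bp from the summit. The signal was 140 in the pooled data (rank 346), 84.9 in replicate 3 (rank 338) and 56.3 in replicate 4 (rank 424). The strongest other region of NetB, in a noncoding exon, had 59 (rank 1752) in the pooled data, and the region at its TSSs had 34.5 (rank 6834).

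The Slit gene sli (FBgn0264089, 2R, 15869495 to 15922118, minus strand) had 2 weak optimal peaks. The intronic one, at 15886971 to 15887406, lies 3728 bp after the second TSS. Its signal was 79 in the pooled data (rank 1037), 49.6 in replicate 3 (rank 970) and 34.5 in replicate 4 (rank 1138). The other, at 15869026 to 15869461, lies 251 bp past the 3′ end of sli and 97 bp from the TSS of Rif1, a gene that acts in control of DNA replication. It had 70.7 in the pooled data (rank 1278) and 46.9 in replicate 3 (rank 1085), but 20.1 in replicate 4 (rank 7444). This was the only one of the 10 peaks within 500 bp of the TSS of any gene, against 45.1% of all optimal peaks. The 10 peaks come only from windows of these long genes, and the 45.1% from the whole list, so the shares are not like for like. The strongest other region of sli, in an intron, had 37.6 (rank 5301). The region at the first sli TSS had 22.6 (rank 21701), and the second TSS had none in the pooled list.

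Of the Slit receptor genes, only robo2 (FBgn0002543, 2L, 1380086 to 1420453, minus strand) had an optimal peak, at 1422720 to 1423155, 2485 bp upstream of its TSS. Its signal was 141 in the pooled data (rank 344), 71.8 in replicate 3 (rank 468) and 69.4 in replicate 4 (rank 289). The strongest other region of robo2, in an intron, had 53.3 (rank 2126), and the region at its TSS had 26.1 (rank 15065). At robo1 (FBgn0005631, 2R, 22692524 to 22700970, minus strand), the shortest of the 9 genes, the strongest of 9 pooled regions had 40.9 (rank 4196), 40 bp from a TSS, with 14.9 in replicate 3 (rank 14145) and 17.9 in replicate 4 (rank 11168). Its nearest optimal peak lay 14.1 kb beyond its 3′ end. At robo3 (FBgn0041097, 2L, 1256417 to 1296596, plus strand) the strongest of 8 pooled regions had 25.4 (rank 16120), in an intron, and the region at its TSS had 20 (rank 28421). Its nearest optimal peak was that of robo2, 126 kb away. The robo3 window held 4 regions in replicate 3 and 9 in replicate 4, the fewest of the 9 genes in both.

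The axon growth gene sick (FBgn0263873, 2L, 19796365 to 19958424, plus strand) is the longest of the 9 and has 8 TSSs and 12 annotated transcripts. It had 3 optimal peaks, all intronic. The strongest, at 19887411 to 19887945, lies 8369 bp upstream of the TSS at 19896045 and is spanned by 7 of the 12 transcripts. The nearest TSS of any gene, 4874 bp away, belongs to the nested gene CG10481. Its signal was 2914 in the pooled data (rank 12), 1625 in replicate 3 (rank 13) and 1301 in replicate 4 (rank 8), with summits 0 and 4 bp from the pooled one. The peak at 19865375 to 19865810, 588 bp upstream of a further TSS, had 124 in the pooled data (rank 450), 79.7 in replicate 3 (rank 384) and 44.5 in replicate 4 (rank 640). The peak at 19949597 to 19950032 lies near the 3′ end and had 73.5 in the pooled data (rank 1177), 47 in replicate 3 (rank 1075) and 34.8 in replicate 4 (rank 1104). The replicate 4 summit of this peak lay 116 bp from the pooled one. A region at 19869931 to 19870366 fell just short of the optimal list, with 69.2 in the pooled data (rank 1321), 31.5 in replicate 3 (rank 2376) and 37.1 in replicate 4 (rank 942). The region with the exact CTCF core word, 848 bp from the TSS of snRNA:U5:38ABb, had 48.2 in the pooled data (rank 2714), 38.2 in replicate 3 (rank 1603) and 17 in replicate 4 (rank 13155). Of the 8 sick TSSs, 3 had a pooled region, the strongest with signals of 33.5 at 19866181 (rank 7442), 46.5 at 19896045 (rank 2998) and 33.9 at 19918161 (rank 7160).

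**Figure D2:**
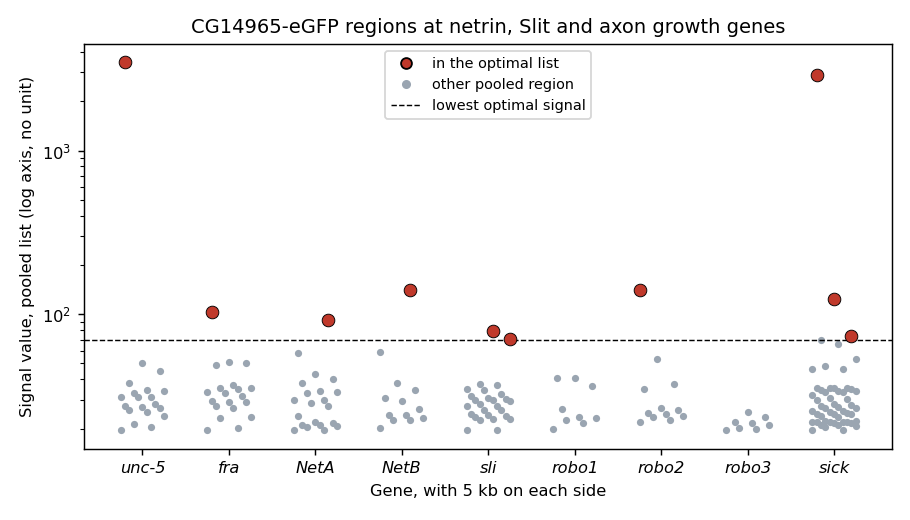
Signal value of every pooled region (log axis, no unit) in the window of each of the 9 genes; large red points are in the optimal list, and the dashed line is the lowest optimal signal, 69.8. The peaks of unc-5 (3457) and sick (2914) stand apart, the other 8 optimal peaks lie between 70.7 and 141, and robo1 and robo3 have no point above the line.

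Across the 10 peaks the median signal was 113, against 101 over all optimal peaks, and the median rank was 543. The order of the weaker peaks was not stable. The 2 strongest kept their places in the pooled list and in both replicates, with unc-5 above sick and both above the other 8. Below them NetB and fra were highest in replicate 3 (84.9 and 81.6), and robo2 and NetB in replicate 4 (69.4 and 56.3). There fra had only 28.3, in a region with its summit 428 bp from that of the peak. Of the 10 peaks, 7 ranked better in replicate 3 and 3 in replicate 4. Some of these differences were small, such as ranks 5 and 6 for unc-5 and 1075 and 1104 for the weakest sick peak. The same count over all optimal peaks is not given here, so the split is not a result about these genes. A peak was counted as high in a replicate if it overlapped one of that replicate's 1302 highest regions. On this count 8 of 10 were high in both replicates, against 64.1% of all optimal peaks, and the exceptions were fra and the downstream peak of sli, which missed in replicate 4. The replicate lists feed the pooled list, so this agreement is not independent of the choice of peaks. With replicate 3 alone, 7 of the 9 genes had one of these high regions, against 17.6% of protein-coding genes. With replicate 4 alone, 6 had one, without fra, against 18.1%.

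**Figure D3:**
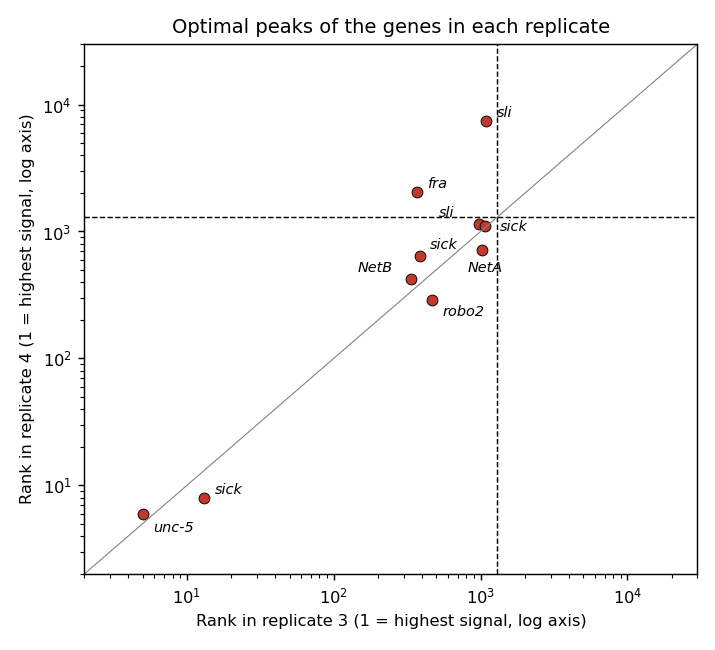
Rank of each of the 10 optimal peaks in replicate 3 (horizontal) and replicate 4 (vertical), both log axes, where 1 is the highest signal. Dashed lines mark rank 1302; unc-5 and the strongest sick peak lie at ranks of at most 13 in both, and fra and 1 sli peak lie above the line of replicate 4.

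By place, 7 of the 10 were intronic, 2 lay in the upstream flank (unc-5 and robo2) and 1 in the downstream flank (sli), with none in an exon or within 500 bp of a TSS of its own gene. Among all protein-coding genes, 4.9% had an optimal peak within 500 bp of a TSS, so 0 of these 9 genes is near the background. Within 1000 bp of an own TSS there were 2, those of sick at 588 bp and of unc-5 at 823 bp. Weaker candidates did lie at starts. Of the 21 TSSs of the 9 genes, 13 had a pooled region within 500 bp, and 8 of the 9 genes had at least 1 such TSS, but the strongest of each ranked between 2650 and 28421 in the pooled list. The same counts over all TSSs and all protein-coding genes are not given here, so they are not a result about these genes. The pooled regions in all windows fell into introns (114), coding exons (23), upstream flanks (16), downstream flanks (15), promoters (13) and noncoding exons (2). Neither this split nor that of the 10 peaks was set beside all regions of its list. The share of the windows that is intron is not given either, so the splits are not a result about these genes. At the edges of the windows, the robo2 summit lay nearest, 2515 bp inside its edge, and the unc-5 summit lay 4177 bp inside. The closest peak outside any window lay 7384 bp beyond the edge of unc-5, at the TSS of SRPK (73.2, rank 1192).

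**Figure D4:**
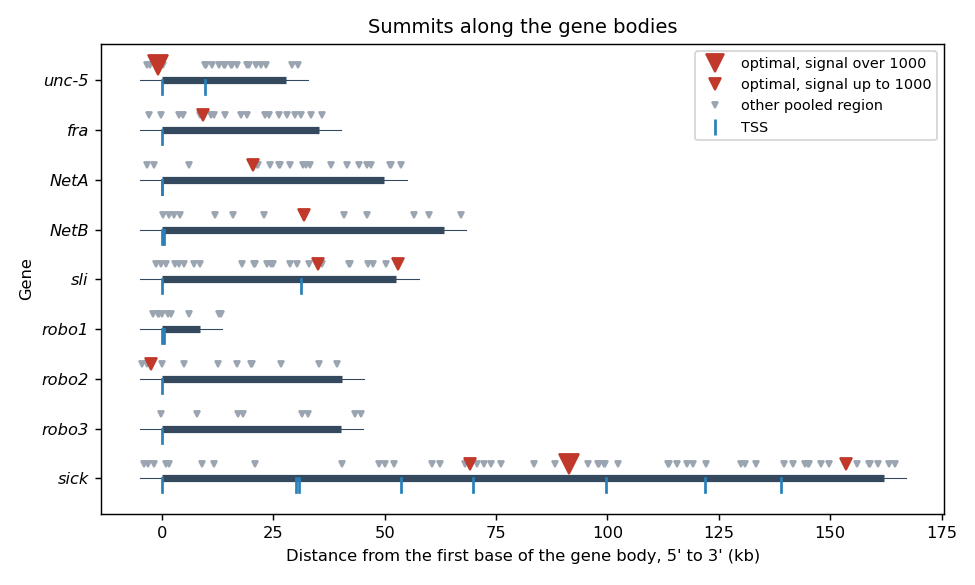
Summits of the pooled regions along each gene body, as distance in kb from its first base, 5′ to 3′; thick bars are gene bodies, thin lines the 5 kb on each side, and blue ticks TSSs. Red triangles, optimal peaks, fall in introns or flanks, none within 500 bp of a blue tick, though at this scale the nearest (588 and 823 bp) appear close to one. Only TSSs of the gene itself are drawn. The large triangles (signal over 1000) mark unc-5, 823 bp before its TSS, and the middle of sick.

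Words close to the CTCF core stood at both strong peaks and at none of the 8 weaker ones. No exact CTCF core word lay within 50 bp of the summit in any of the 10 peaks, against 5.91% of all optimal peaks. Allowing 1 mismatch, 1 of 10 had a word fully within 50 bp (the strongest sick peak printed above), against 12.6% of all optimal peaks and 6.39% of other pooled regions. Within 100 bp both strong peaks had one, that of unc-5 starting 48 bp from its summit, and none of the 8 weaker peaks had one within 100 bp or anywhere in the region. Over the whole list the same words, with at most 1 mismatch, lay within 100 bp in 33 of 36 optimal peaks with a signal over 1000 (91.7%), in 16.9% of the other optimal peaks and in 12.4% of other pooled regions. Anywhere in the region they lay in 27.6% of the optimal peaks with a signal up to 1000 and in 24% of other pooled regions. A count of 0 among 8 peaks is too small a base to set them apart from 16.9% or 27.6%. The remaining motifs were counted within 50 bp, where none of the counts sets the 10 peaks apart from all optimal peaks. Within 50 bp none held AGATGGCG, which overlaps a CTCF core word (4.07% of all optimal peaks), the E-box CACGTG (2.23%), the DNA replication-related element TATCGATA (1.31%), GAGAGAG (1.23%) or the Zelda word CAGGTAG (0.461%). The Pleiohomeotic core GCCAT, which also occurs inside the reverse complement of AGATGGCGC, was in 2 of 10 (the strongest sick peak and robo2), against 19.4% of all optimal peaks. Elsewhere in their regions, the unc-5 peak held AGATGGCG 268 bp from its summit, and the intronic sli peak held GAGAGAG starting 46 bp from its summit. GCCAT lay somewhere in most of the 10 regions, and the same share over all optimal peaks is not given here. A match is a description of letters, and binding of these factors was not measured. Mean GC content of the 101 bases was 37.5 ± 8.92% in the 10 peaks and 38.1 ± 9.32% in all optimal peaks (SD over peaks).

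The genes most like unc-5 and sick in signal were sought among 2452 other genes with an optimal peak, by Euclidean distance of log2 signal over 3 lists (pooled, replicate 3, replicate 4). The nearest to unc-5, at a distance of 0.093, was the ecdysone-induced nuclear receptor gene Eip75B, with an intronic peak of 3581 in the pooled data, 2196 in replicate 3 and 1401 in replicate 4. Next, at 0.17, came 1 peak in the windows of CG6345, Irp-1B and Rrp46 (3232, 1948 and 1303 in the same lists) and, at the same rounded distance, a peak of SNF4Agamma (3229, 1950 and 1292). The nearest to sick, at 0.14, was 1 peak shared by the windows of ATPsynD, CG6040, cdi and mRpL55 (2950, 1746 and 1223 in the same lists).

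A wider list of 58 axon guidance genes, which leaves out the 9 genes, gave the setting. Of these, 21 had an optimal peak (36.2%), against 17.7% of all protein-coding genes. Their median window was 41.9 kb, and of all genes with windows of 40 to 60 kb 35.1% had one, so the list is near the background at its length. Its windows held 0.792 optimal peaks per 100 kb, against 0.973 over the chromosome arms and 1.04 in all gene windows of 40 to 60 kb. By group the counts were 6 of 16 netrin and Slit partners, 2 of 9 semaphorin and plexin genes, 1 of 6 Eph and Wnt genes, 8 of 22 adhesion and receptor phosphatase genes and 4 of 5 genes of the axon cytoskeleton. The cytoskeleton genes had a median window of 20.4 kb, and 29.2% of all genes with windows of 20 to 40 kb had a peak, but 5 genes are too few to read from. Of the 21, 6 had a peak within 500 bp of their own TSS, out of 58 on the list and against 4.9% of all protein-coding genes: Ptp4E, tutl, Ten-a, Abl, shot and RhoGAP93B. The 4.9% is not matched for gene length or number of TSSs, so the difference is not a result about the list. The strongest peak of the list, in an intron of the adhesion gene Nrt, had 969 in the pooled data (rank 38), 611 in replicate 3 (rank 37) and 359 in replicate 4 (rank 41). It is weaker than those of unc-5 and sick. After it came Ptp4E (162), a receptor phosphatase, beat-Ib (134), tutl (128), ena (122), an actin regulator, dlp (120), comm3 (103), Wnt5 and caps (102 each) and Ten-a (94.5), by pooled signal. Several of these peaks lay at the TSS of another gene. The ena peak was 101 bp from the TSS of CG15118, the comm3 peak 89 bp from that of Phs. The beat-Ib peak was 382 bp from that of lncRNA:CR44867, and the Ten-m peak 147 bp from that of IleRS. Among the cytoskeleton genes, the chb peak was 69 bp from the TSS of Ac78C. The Cdc42 peak was 87 bp from that of Mer and the Rho1 peak 159 bp from that of Dg. None of the 21 strongest peaks held an exact CTCF core word within 50 bp, against 5.91% of all optimal peaks, so this count is near the background.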

How the data were processed

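The assay was anti-GFP ChIP-seq of CG14965-eGFP in whole embryos, replicates 3 and 4. The authors deposited narrowPeak lists on dm6 and dm3. Column 7 is a signal value, a score of unstated scale in the deposited lists. Column 9 is a deposited −log10 significance, which here only ordered regions of equal signal. The deposited column 10 gives how far the summit lies from the start of its region. Per the labels' text files, the lists were called on alignments with a control. Which peak caller and aligner were run, and in which versions, is not given in the sources used here. The dm3 lists were not used, since no annotation of that build was used here.

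Summits were placed with Python 3.11.15 on the Ensembl release 115 annotation of the Release 6 genome, and figures drawn with matplotlib 3.10.9. A window is the gene body with 5 kb on each side. A promoter is within 500 bp of a TSS of the gene; transposable elements were left out. A rank is the place by column 7 in a list, with ties sharing the best rank. The replicate value of a peak is that of its highest-signal region overlapping by at least 1 bp. Placing (12 of 12 cases) and motif search (200 of 200) were checked on simulated data. The lists have 1 group and the genes were picked on them, so no test was run.

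All 9 genes and all their optimal peaks are described, with the strongest other region, regions at a TSS and the genes at the summits. From the wider list up to 10 genes with the strongest peaks get values, and for unc-5 and sick the 3 most alike genes are named, with those tied to them at the printed distance. The 9 genes, the wider list and the motifs were chosen with earlier results of these data known. Hr51, CG10481, hog, SRPK, the sick regions outside the optimal list and the split at a signal of 1000 were chosen after their values were seen. Alternatives were 2 and 10 kb flanks, placement by overlap, the stronger part of the list, each replicate alone, promoter windows of 250 and 1000 bp, other motif windows and other matching of replicates.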

Additional observations from a re-analysis of the deposited data

How the results depend on the processing

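The 7 genes with an optimal peak became 6 with 2 kb flanks, which leave out robo2, and stayed 7 with 10 kb flanks or placement by overlap. The number was 5 in the stronger 50% of the optimal list, and 6 to 7 with each replicate left out. The 10 peaks became 6 in that stronger part, 9 with 2 kb flanks and 10 to 12 with each replicate left out. Promoter peaks numbered 2 (unc-5 and sick) with a 1000 bp window and 0 with 250 bp. The share of all protein-coding genes with a peak was 11.5% with 2 kb and 26.9% with 10 kb flanks, and 31.9% for windows at least as long as the shortest of the 9, an alternative added after seeing the data. Peaks high in both replicates numbered 7 to 9 over the settings run. Exact CTCF core words stayed at 0 within 50 bp, within 100 bp and over the whole region; with 1 mismatch allowed, also added later, 1 peak had one within 50 bp and 2 within 100 bp. The wider list gave 16 to 26 genes. With each replicate left out, the unc-5 signal ranged from 1336 to 2140 and the sick signal from 1301 to 1625, each on its replicate's own scale. No paired analysis was possible because there is only 1 group and no test was run. Without read numbers, no limit set by depth can be given for robo1 or robo3.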
